A study of Rattus norvegicus with 12 samples.

Results

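Cervix of nonpregnant (NP) rats was compared with and without its macrophages (Mφs). The comparison used 6 of the 12 rats of the study: whole NP rats 8, 9 and 10, and Mφ-depleted NP rats 5, 6 and 7, as the sample labels name them. All were adult female Sprague Dawley rats taken in proestrus. Every cervix was minced and dispersed into single cells with Collagenase B, so that whole cervix here means the full cell suspension. In the Mφ-depleted group, cells that bound the ED1 antibody were pulled out with magnetic beads, and the unbound cells were frozen. Cells of whole cervix were frozen without these steps, so Mφ loss, loss of other cells and the added handling cannot be told apart. The whole and Mφ-depleted cells came from different animals, 1 rat on each array. The 6 rats of gestational day 21 (D21), whole rats 5, 6 and 7 and Mφ-depleted rats 1, 2 and 4, serve for contrast.

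Mφs are resident phagocytes that depend on the growth factor Csf1 and its receptor Csf1r, take up debris, present antigen on MHC class II molecules and secrete complement. ED1 recognises Cd68, a glycoprotein that sits mostly in the lysosomal membrane inside the cell. The rest of the cervix is a stroma of fibroblasts and smooth muscle in a collagen-rich matrix, with vessels, and an epithelium that is partly stratified squamous and partly simple.

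Levels are log2 intensities minus the 75th percentile of the array, so that 0 is the 75th percentile and amounts of RNA per cell were not measured. For 1 probe these levels can be compared between rats but not with another probe. In bulk cells, fewer cells of a type and less RNA per cell cannot be told apart. A gene counted as called when its unadjusted limma p was below 0.01 and its change 2-fold or more, and printed p-values are limma p-values after Benjamini-Hochberg adjustment over all genes tested. A positive log2 fold change means higher in whole cervix, that is, less signal after removal. Where the 3 rats of a group were all below the scanner rating of well above background, the fold is a bound set against the lowest signal so rated on each array. Of 13393 genes tested, 1817 (13.6%) were higher and 1444 (10.8%) lower in whole cervix, 24.3% in either direction. The whole and Mφ-depleted rats did not overlap for 47.1% of genes tested, and in 24.1% the whole rats were below. Changes of at least 16-fold were found for 320 genes higher in whole cervix and for 25 genes lower.

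Mφ-depleted rats 5 and 6 lay on slide 1, Mφ-depleted rat 7 and whole rats 8 and 9 on slide 3, and whole rat 10 on slide 4. Slide 3 therefore allowed a comparison within 1 slide and 1 scan day, in which 1525 genes (11.4%) were called higher and 1052 (7.86%) lower. A slide term in the fit left 1533 higher and 990 lower, and a scan day term 1670 and 1177. The comparison within slide 3 was added after the data had been seen. It rests on 1 Mφ-depleted rat and takes its spread from the other groups. All 1817 genes called higher and all 1444 called lower over the 6 rats kept their direction within slide 3. The rats of slide 3 were among the 6 used to pick these genes, so the kept direction is no independent check. Mφ-depleted rat 7 had the dimmest NP array, with 44.9% of probes well above background against 61.8% for rat 5.

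Genes of Mφ identity were lower after removal. Of 25 genes listed, 21 could be tested and 21 were called higher in whole cervix (13.6% of all genes were). A gene was tested only where it was well above background on every array of a group, and 17 of the 21 met this through the whole group alone, so that the count describes these genes and their direction is no independent result. The median log2 fold change was 5.13, or 4.96 with the 9 genes that were dim in all Mφ-depleted rats set at a bound or, where another probe was brighter, at the fitted value, and the median over all genes was -0.04. Csf1r (probe on chromosome 18, 57105231 to 57105932 in the rn4 build) had levels of 1.44, 1.07 and 1.80 in whole rats 8, 9 and 10 and of -4.74, -6.01 and -4.99 in Mφ-depleted rats 5, 6 and 7. All whole rats lay well above all Mφ-depleted rats (log2 fold change 6.68, standard error 0.41, adjusted p = 1.75e-06 from limma), and 1 of 3 Mφ-depleted arrays was well above background. The second Csf1r probe differed by 3.91. Adgre1, the F4/80 antigen, had levels of 0.81, 0.61 and 1.26 in whole cervix and -7.07, -5.54 and -5.22 after removal. No Mφ-depleted array was well above background for Adgre1, which had an excess in whole cervix of at least 39.6-fold (adjusted p = 4.26e-06). For Ms4a7, a membrane protein of tissue Mφs, the levels were 0.45, 0.69 and 0.76 against -5.28, -5.22 and -4.81. The rats of each group lay within 1 log2 unit of each other, and with no Mφ-depleted array well above background the excess in whole cervix was at least 32.9-fold (adjusted p = 2.13e-07). Cd53, a leukocyte tetraspanin, had 1.36, 0.62 and 1.75 in whole and -4.93, -3.95 and -5.15 in Mφ-depleted cervix (log2 fold change 5.92, standard error 0.36, adjusted p = 1.75e-06 from limma). Lyz2, the lysozyme of myeloid cells, stood at 5.54, 3.74 and 5.44 and at -2.12, -2.92 and -3.10 (log2 fold change 7.62, standard error 0.56, adjusted p = 4.71e-06 from limma). Whole rat 9 was the lowest of the whole group for both genes but stayed above every Mφ-depleted rat. Cd163, Cx3cr1 and Mpeg1, named outside the rule because they are well-known Mφ genes, were well above background on 2 of 3 whole arrays and on none after removal. They were not tested.

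Cd68 itself gave another picture. Its levels were -0.01, -0.05 and 0.54 in whole and -1.68, 0.14 and 0.38 in Mφ-depleted cervix, well above background on all 6 arrays. Mφ-depleted rats 6 and 7 lay within the range of the whole rats and rat 5 lay below it (log2 fold change 0.54, standard error 0.62, adjusted p = 0.53 from limma). Without Mφ-depleted rat 5 the log2 fold change was -0.10, and within slide 3 it was -0.41. Cd14, the lipopolysaccharide co-receptor of monocytes, was at 2.96, 2.14 and 2.39 in whole and 3.18, 3.68 and 1.33 in Mφ-depleted cervix (log2 fold change -0.23, standard error 0.50, adjusted p = 0.751 from limma). The groups overlapped, and the value was 1.22 within slide 3 and 0.24 without Mφ-depleted rat 6. The groups thus overlapped for the transcript of the antigen used in the separation.

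Among the 22 lysosomal genes tested, 8 were called higher in whole cervix and 0 lower, against 13.6% and 10.8% of all genes, and the median was 0.63. The called members were Ctsh, Ctsk, Ctsl, Ctss, Ctsz, Lgmn, Npc2 and Cd63. Ctsk, the collagen-degrading cathepsin of osteoclasts and of some fibroblasts, had levels of 2.19, 2.07 and 1.58 in whole and -3.74, -3.79 and -2.18 in Mφ-depleted cervix (log2 fold change 5.18, standard error 0.41, adjusted p = 6.81e-06 from limma). Ctss, which cuts the invariant chain in antigen-presenting cells, had 2.48, 2.31 and 2.67 and -2.69, -0.68 and -0.92 (log2 fold change 3.91, standard error 0.51, adjusted p = 0.000184 from limma). Npc2, a lysosomal cholesterol carrier, was higher by 2.32 (adjusted p = 2.21e-05), and the tetraspanin Cd63 by 1.75 (adjusted p = 0.000353). The other 14 lysosomal genes, Cd68 among them, did not pass.

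MHC class II genes moved together. All 6 genes tested of 9 listed were called higher in whole cervix, against 13.6% of all genes. Their log2 fold changes ran from 3.30 to 4.57, with a median of 3.85. RT1-Da, the alpha chain of the rat class II molecule RT1-D, had levels of 3.90, 3.80 and 4.27 in whole and -0.43, -0.24 and -1.06 in Mφ-depleted cervix (log2 fold change 4.57, standard error 0.34, adjusted p = 5e-06 from limma). RT1-Bb, the beta chain of RT1-B, had 2.50, 2.48 and 3.16 and -1.19, -1.33 and -1.97 (log2 fold change 4.21, standard error 0.31, adjusted p = 4.97e-06 from limma). In both, the whole rats were far above the Mφ-depleted rats, and yet all Mφ-depleted arrays remained well above background. RT1-DMb, part of the peptide loader, changed by 4.24 (adjusted p = 4.9e-05) and RT1-Db1, the beta chain of RT1-D, by 3.41 (adjusted p = 2.94e-05). Class II promoters are known for a shared block of elements that includes the Y box. The letters of its core, CTGATTGG on either strand, were found in the 250 bases before the start of 5 of 7 class II genes that the RefSeq promoter table holds, against 3.26% of all promoters in that table, 3.37% of those of genes higher in whole cervix and 5.37% of those lower. The 150 bases before the start of RT1-Da and RT1-Bb (RefSeq, GRCr8 build) are shown as examples of promoters that hold it, with the Y box letters in capitals:
RT1-Da (chr20:4515265-4515414, plus strand): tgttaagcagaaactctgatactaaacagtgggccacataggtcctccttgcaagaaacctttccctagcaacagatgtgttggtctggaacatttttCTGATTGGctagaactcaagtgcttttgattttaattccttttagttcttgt
RT1-Bb (chr20:4604119-4604268, minus strand): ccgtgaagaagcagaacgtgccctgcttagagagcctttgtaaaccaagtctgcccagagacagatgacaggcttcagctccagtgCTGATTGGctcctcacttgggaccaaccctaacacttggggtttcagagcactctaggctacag

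Complement genes split. The C1q chains, which Mφs make in most tissues, the proteases C1r and C1s, and Cfd were higher in whole cervix, and the other components did not pass. C1qa had levels of 3.67, 3.94 and 3.66 in whole and -2.13, -2.96 and -3.40 in Mφ-depleted cervix (log2 fold change 6.59, standard error 0.70, adjusted p = 4.66e-05 from limma). C1qc had 3.26, 3.33 and 2.86 and -2.72, -4.01 and -4.58 (log2 fold change 6.92, standard error 0.67, adjusted p = 2.72e-05 from limma), and C1qb changed by 5.13 (adjusted p = 1.17e-05). C1r and C1s, which stromal cells make in many tissues, were higher in whole cervix by 3.33 (adjusted p = 2.19e-05) and 3.70 (adjusted p = 2.21e-05). Cfd, adipsin, changed by 5.99 (adjusted p = 6.81e-06). In all, 6 of 13 complement genes were called higher and 0 lower, against 13.6% and 10.8% of all genes. Of the 13, 3 were tested through the whole group alone. With slide as a block 6 were called higher and 2 lower, with a median of 0.28. C3, named outside the rule, had 2.89, 4.49 and 4.30 in whole and 3.48, 5.76 and 6.31 in Mφ-depleted cervix (log2 fold change -1.29, standard error 0.75, adjusted p = 0.207 from limma). The median of the list was 1.72 over the 6 rats and 0.03 within slide 3.

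**Figure D1:**
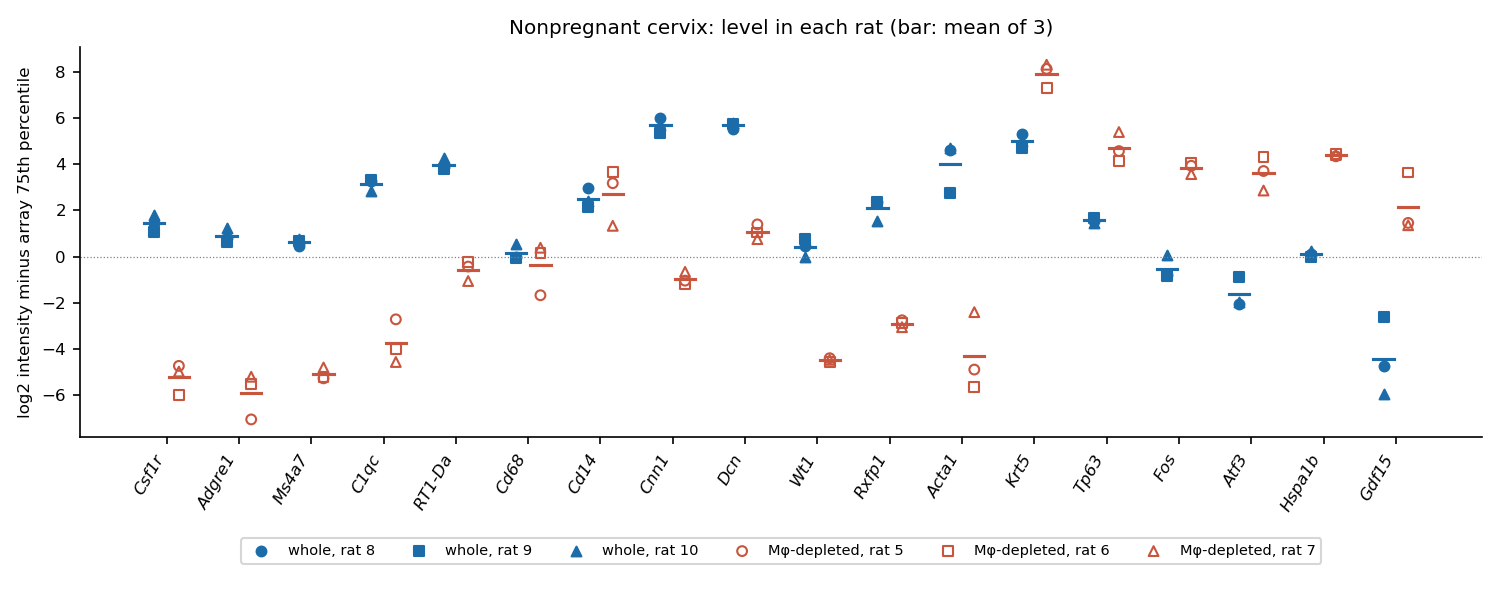
Level of 18 genes in each NP rat, as log2 intensity minus the 75th percentile of the array (y axis); filled blue marks are whole rats 8, 9 and 10, open red marks Mφ-depleted rats 5, 6 and 7, and bars the means of 3. Heights of different genes are not comparable. Cd68 and Cd14 overlap between groups. Csf1r, Cnn1, Dcn, Wt1 and Acta1 are higher in every whole rat, and Krt5, Fos, Atf3, Hspa1b and Gdf15 are lower in every whole rat.

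Other leukocyte markers were mostly dim. Of 10 mast cell genes 6 could be tested, 4 of them through the whole group alone, so the direction of those 4 is no independent result. The proteases Cpa3, Mcpt1, Tpsb2 and Cma1 were called higher in whole cervix. Cpa3, carboxypeptidase A3, had -2.32, -1.67 and -1.74 in whole and -5.73, -7.09 and -4.64 in Mφ-depleted cervix, was dim on every Mφ-depleted array and had an excess in whole cervix of at least 5.69-fold (adjusted p = 0.000532). Kit, the stem cell factor receptor, went the other way, at -2.24, -1.05 and -2.44 and -0.20, 0.88 and -0.16 (log2 fold change -2.08, standard error 0.50, adjusted p = 0.00863 from limma), but was not called within slide 3, where its log2 fold change was -1.48. Mcpt1, Cpa3 and Tpsb2 were not called with normexp background correction, and Tpsb2 and Cma1 not within slide 3. Among T and NK cell genes, Nkg7, a protein of cytotoxic granules, had levels of -0.92, -0.71 and -0.55 against -4.80, -5.27 and -5.11 (log2 fold change 4.33, standard error 0.50, adjusted p = 8.37e-05 from limma). The granule proteins Gzmm and Prf1 were also higher in whole cervix, by 3.38 (adjusted p = 0.00204) and 2.79 (adjusted p = 0.00249). All 6 T and NK cell genes tested were so through the whole group alone, and their direction is no independent result. Cd3d, part of the T cell receptor complex, was not called (log2 fold change 0.37, standard error 0.27, adjusted p = 0.313 from limma), and Cd3e, Cd2 and Cd5 were well above background on at most 1 of 6 arrays. Csf3r, the receptor of neutrophil growth factor, had an excess in whole cervix of at least 5.15-fold (adjusted p = 0.0021), with no Mφ-depleted array well above background. It was not called within slide 3 (1.83) or with normexp background correction, and the same held for Flt3, the receptor of dendritic cell precursors, which was dim on all Mφ-depleted arrays and had an excess of at least 3.19-fold (adjusted p = 0.00161). Of the neutrophil granule genes, S100a8 had 0.09, -0.94 and 0.54 in whole and -2.66, -0.65 and -1.55 in Mφ-depleted cervix and was not called over all 6 rats. S100a9 ranged from -2.68 to 2.60 among the Mφ-depleted rats, wider than the range of the whole group. Of 6 B and plasma cell genes matched, only Pax5 could be tested and its groups overlapped. The part of these leukocytes in the other changes was not tested.

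Stromal genes were lower after removal too, by smaller medians than the Mφ genes. All 13 smooth muscle genes tested were called higher in whole cervix, against 13.6% of all genes, with a median of 4.42 and a range from 2.17 to 6.66. Of the 13, 3 were tested through the whole group alone, so the direction of those 3 is no independent result. Cnn1, calponin, which damps the contraction of smooth muscle, had levels of 6.02, 5.34 and 5.71 in whole and -1.05, -1.19 and -0.66 in Mφ-depleted cervix (log2 fold change 6.66, standard error 0.28, adjusted p = 2.13e-07 from limma). Myh11, the smooth muscle myosin heavy chain, had 5.56, 5.20 and 5.43 and 1.81, 2.01 and 2.02 (log2 fold change 3.45, standard error 0.26, adjusted p = 5.5e-06 from limma). The 3 rats of each group lay close together, and the gap between groups was many times their spread. Tagln, transgelin, changed by 4.42 (adjusted p = 3.17e-06), Kcnmb1, a potassium channel subunit, by 5.51 (adjusted p = 4.97e-06), and the actin Acta2 by 3.64 (adjusted p = 9.01e-05). Pericyte genes were mixed, with 4 of 6 called higher and 1 lower, against 13.6% and 10.8% of all genes. Of the 6, 3 were tested through the whole group alone. Rgs5, Kcnj8, Pdgfrb and Abcc9 were higher in whole cervix by 4.10, 4.03, 2.66 and 2.46. The receptor Notch3 was lower, at -1.33, -1.18 and -1.66 in whole and 0.73, 0.26 and 0.77 in Mφ-depleted cervix (log2 fold change -1.97, standard error 0.40, adjusted p = 0.00324 from limma).

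Of 13 fibroblast genes 12 were called higher in whole cervix, against 13.6% of all genes, with a median of 4.07. Of the 13, 2 were tested through the whole group alone. Dcn, the collagen-binding proteoglycan decorin, had 5.54, 5.75 and 5.79 in whole and 1.39, 1.04 and 0.76 in Mφ-depleted cervix (log2 fold change 4.63, standard error 0.25, adjusted p = 1.01e-06 from limma). Dpt, dermatopontin, had 1.76, 1.77 and 1.49 and -3.44, -4.06 and -4.06 (log2 fold change 5.53, standard error 0.25, adjusted p = 4.76e-07 from limma). Both genes were nearly constant among whole rats. Pdgfra, the growth factor receptor that marks fibroblasts, changed by 4.23 (adjusted p = 2.24e-06) and Twist2, a mesenchymal transcription factor, by 5.71 (adjusted p = 9.15e-06). Thy1, named as the 1 member not called, was at -7.21 in Mφ-depleted rat 6 and at -2.16 and -1.01 in rats 5 and 7 (log2 fold change 3.00, standard error 1.35, adjusted p = 0.11 from limma). Of 22 genes of matrix assembly, 18 were called higher and 0 lower, against 13.6% and 10.8% of all genes, with a median of 3.63. Of the 22, 6 were tested through the whole group alone. With slide as a block 1 was called lower. Ogn, the proteoglycan osteoglycin, had 4.27, 4.29 and 4.24 in whole and -0.54, -0.53 and -0.30 in Mφ-depleted cervix (log2 fold change 4.73, standard error 0.23, adjusted p = 5.92e-07 from limma). Postn, periostin, had 1.71, 2.66 and 0.84 and -3.36, -4.90 and -5.24 (log2 fold change 6.24, standard error 0.51, adjusted p = 8.03e-06 from limma). Lox, which cross-links collagen and elastin, changed by 5.01 (adjusted p = 2.28e-05), Col6a1 by 4.24 (adjusted p = 7.08e-06) and Prelp by 3.56 (adjusted p = 1.61e-05). Eln, Fmod, Mgp and Tnc, the 4 members not called, had log2 fold changes of 1.57, 1.17, 1.63 and -0.76.

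Genes that pattern the reproductive tract moved with the stroma: 9 of 10 were called higher in whole cervix, against 13.6% of all genes, with a median of 4.24. Of the 10, 6 were tested through the whole group alone, so their direction is no independent result. Hoxa11, which patterns the uterus and cervix in the embryo, had levels of 2.31, 2.87 and 1.69 in whole and -2.69, -4.61 and -2.42 in Mφ-depleted cervix (log2 fold change 5.53, standard error 0.50, adjusted p = 1.51e-05 from limma). Wt1, a transcription factor of urogenital mesenchyme, had 0.48, 0.75 and -0.02 and -4.41, -4.57 and -4.48 (log2 fold change 4.89, standard error 0.26, adjusted p = 1.01e-06 from limma). No rat overlapped between the groups in either gene. Hoxa10 and Osr2 changed by 4.65 (adjusted p = 4.26e-06) and 5.04 (adjusted p = 8.01e-06). Emx2, the member not called, had a log2 fold change of 0.52. Among hormone receptors, Rxfp1, the receptor for relaxin, had 2.38, 2.36 and 1.53 in whole and -2.77, -2.89 and -3.07 in Mφ-depleted cervix (log2 fold change 4.99, standard error 0.30, adjusted p = 1.69e-06 from limma). Esr1, the estrogen receptor, went the other way, with a log2 fold change of -1.24 (adjusted p = 0.0315), but the call was lost with either batch term, within slide 3 (-0.48), and without rat 5, 6, 8, 9 or 10. Nr3c1, the glucocorticoid receptor, was called (adjusted p = 0.00921) from a probe dim on all Mφ-depleted arrays, so that no fold is given. Its other probe, well above background on 1 whole and 1 Mφ-depleted array, differed by 0.69, and the call was lost without whole rat 8, with a scan day term and with normexp background correction.

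Skeletal muscle and adipocyte genes gave some of the largest changes. Of 13 skeletal muscle genes 6 could be tested and all were called higher in whole cervix, against 13.6% of all genes. The median was 5.33, or 4.94 with the 2 genes dim in all Mφ-depleted rats at a bound or, where another probe was brighter, at the fitted value. Of the 6, 5 were tested through the whole group alone. Acta1, skeletal alpha-actin, had 4.63, 2.76 and 4.70 in whole and -4.90, -5.66 and -2.41 in Mφ-depleted cervix (log2 fold change 8.36, standard error 0.78, adjusted p = 1.91e-05 from limma). Tnnc2, a fast-muscle troponin, had 4.64, 3.12 and 5.13 and -4.17, -3.04 and -3.74 (log2 fold change 7.95, standard error 0.58, adjusted p = 4.26e-06 from limma). The groups were far apart, yet not all muscle genes were detected. Myh2 and Atp2a1, which mature fibres express highly, were dim on all 6 NP arrays. Cox6a2, the muscle form of a cytochrome oxidase subunit, had an excess in whole cervix of at least 43.8-fold (adjusted p = 2.19e-05). Among 7 adipocyte genes tested, 6 were called higher, against 13.6% of all genes, with a median of 3.72. Of the 7, 5 were tested through the whole group alone, so their direction is no independent result. Car3, carbonic anhydrase 3, was at 0.49, 2.16 and 2.39 in whole and -7.23, -6.88 and -4.57 in Mφ-depleted cervix with an excess in whole cervix of at least 68.5-fold (adjusted p = 0.000184). The hormone Adipoq was called over all 6 rats (log2 fold change 2.74, standard error 0.69, adjusted p = 0.0109 from limma) but not without rat 5 or rat 10, nor within slide 3, where it was 0.74. Plin1 and Lep were dim on all 6.

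Endothelial genes went both ways. Of 11 tested 3 were called higher and 1 lower in whole cervix, against 13.6% and 10.8% of all genes, with a median of 0.27. A list of 11 is too short to set these counts apart from those shares. Pecam1 had levels of 1.21, 1.17 and 1.77 in whole and 1.23, 2.09 and 1.69 in Mφ-depleted cervix (log2 fold change -0.29, standard error 0.41, adjusted p = 0.621 from limma). Emcn, endomucin, was higher in whole cervix by 1.86 (adjusted p = 0.000697). Kdr (1.06), Eng (1.04) and Vwf (-1.33) passed over the 6 rats, but none of the 3 was called within slide 3. Kdr lost its call without any 1 of the 6 rats, Eng without rat 5, 6, 8 or 10, and Vwf without rat 5, 6, 8 or 9. The inducible adhesion molecules, which activated endothelium sets out for leukocytes, went both ways too. Of 5 tested, 3 were called lower and 1 higher in whole cervix, against 10.8% and 13.6% of all genes. Their median was -1.33. In the 1 member not called, all whole rats lay above all Mφ-depleted rats. With slide as a block 2 were called lower and 2 higher. Sele, E-selectin, had -4.24, -5.12 and -4.73 in whole and -2.10, -1.29 and -1.69 in Mφ-depleted cervix, with no whole array well above background, and an excess after removal of at least 4.81-fold (adjusted p = 5.41e-05). Selp, P-selectin, had -1.85, -1.68 and -1.19 and 0.99, 0.80 and 0.23 (log2 fold change -2.24, standard error 0.41, adjusted p = 0.00185 from limma). All Mφ-depleted rats lay above all whole rats in both. The second probes of Sele and Selp, well above background on 2 and 1 of 6 arrays, differed by -2.02 and -0.07, and Sele was not called with normexp background correction nor Selp with the mean of its probes. Icam1, the third gene called lower (-1.33, adjusted p = 0.0256), was not called within slide 3 or without rat 5, 6, 8 or 9. Icam2 was higher in whole cervix by 1.23 (adjusted p = 0.00169). Lyve1, a hyaluronan receptor of lymphatic vessels and of some Mφs, was higher in whole cervix by 3.95 (adjusted p = 4.54e-05). Pdpn had a log2 fold change of -0.37 (adjusted p = 0.34), and Prox1 was dim on all 6 arrays.

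**Figure D2:**
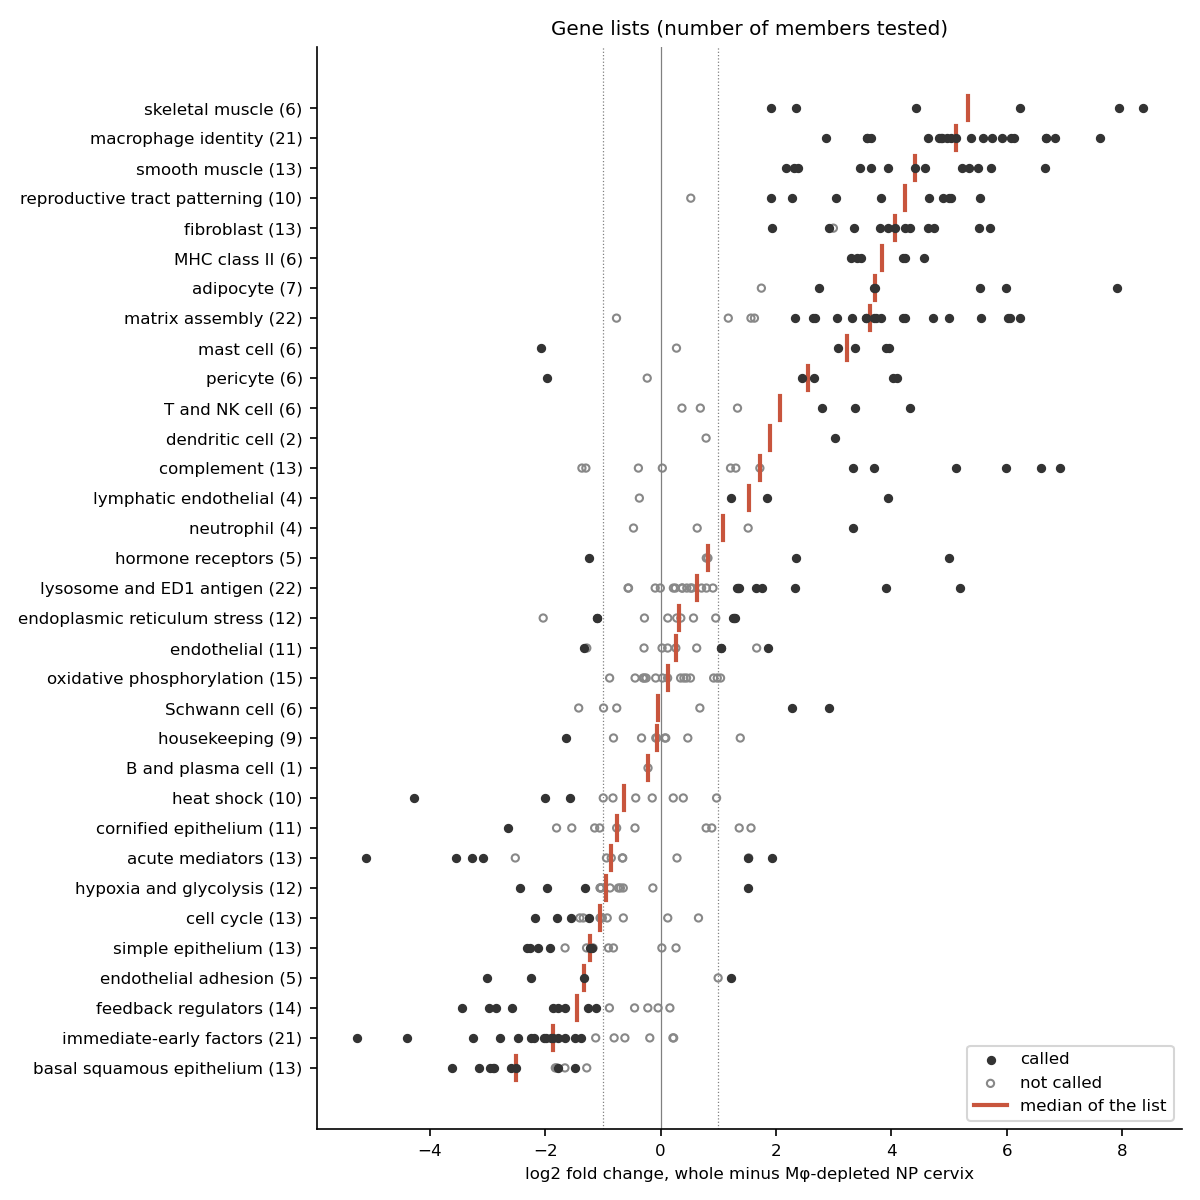
Log2 fold change between whole and Mφ-depleted NP cervix (x axis) of every tested member of each gene list (y axis, with the number tested); filled points were called, open points not, and the red bar is the median. Dotted lines mark a 2-fold change. Medians run from -2.50 for basal squamous epithelium to 5.33 for skeletal muscle, which is 4.94 with dim genes at their bound against 4.96 for Mφ identity, and those of housekeeping and oxidative phosphorylation genes lie at -0.07 and 0.12.

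Squamous epithelial genes had a higher level in Mφ-depleted cervix. Of 13 genes of the basal layer, 9 were called lower in whole cervix and 0 higher, with a median of -2.50, against 10.8% of all genes called lower. Krt5, the basal keratin, had levels of 5.31, 4.71 and 5.03 in whole and 8.14, 7.31 and 8.32 in Mφ-depleted cervix (log2 fold change -2.90, standard error 0.30, adjusted p = 3.58e-05 from limma). Tp63, the transcription factor of stratified epithelia, had 1.55, 1.68 and 1.47 and 4.57, 4.15 and 5.40 (log2 fold change -3.14, standard error 0.31, adjusted p = 2.99e-05 from limma). Every Mφ-depleted rat lay above every whole rat in both. A second Tp63 probe, also well above background on all 6 arrays, differed by 0.29 on the log2 scale and so did not follow the first. Col17a1, which anchors basal cells to the basement membrane, changed by -3.61 (adjusted p = 1.06e-05; its second probe by -3.47) and Itgb4, its integrin partner, by -2.96 (adjusted p = 7.01e-05). Fat2, a protocadherin of squamous epithelium, changed by -3.84 (adjusted p = 1.04e-05). Simple epithelium moved less, with 6 of 13 genes called lower in whole cervix, against 10.8% of all genes, and a median of -1.22. Its cadherin Cdh1 had 1.15, 0.68 and 1.20 in whole and 2.77, 3.01 and 2.97 in Mφ-depleted cervix (log2 fold change -1.91, standard error 0.22, adjusted p = 7.1e-05 from limma). Cldn4, a tight junction protein, changed by -2.31 (adjusted p = 0.000168) and Esrp1, a splicing regulator of epithelia, by -2.26 (adjusted p = 0.00025). Epcam passed over the 6 rats (-1.19, adjusted p = 0.0268), but not without rat 6, 7, 8 or 10 or within slide 3 (-1.36), and Elf3 was not called within slide 3 (-1.85).

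In the cornified layer the rats of a group differed more than the groups did. Krt10, a keratin of cells above the basal layer that is named here for this spread, had levels of 3.08, -4.77 and 4.14 in whole and 4.88, -3.98 and 4.98 in Mφ-depleted cervix. Loricrin, of the cornified envelope, had 1.92, -4.91 and 4.32 and -0.42, -4.30 and 1.35. Sprr1b, a cross-linked envelope protein, had 3.47, -5.69 and 4.26 and 3.78, -2.99 and 3.53. Whole rat 9 and Mφ-depleted rat 6 were low in all 3 genes, and the other 4 rats high or intermediate. Only Krt4 of 11 genes was called, against 24.3% of all genes in either direction. A list of 11 is too short to set this count apart from that share. Krt4 was not called within slide 3 or without rat 5, 6, 9 or 10. Whole rat 9 lies on slide 3 and rat 6 does not. The median of this list was -0.76 over the 6 rats and -2.05 within slide 3.

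**Figure D3:**
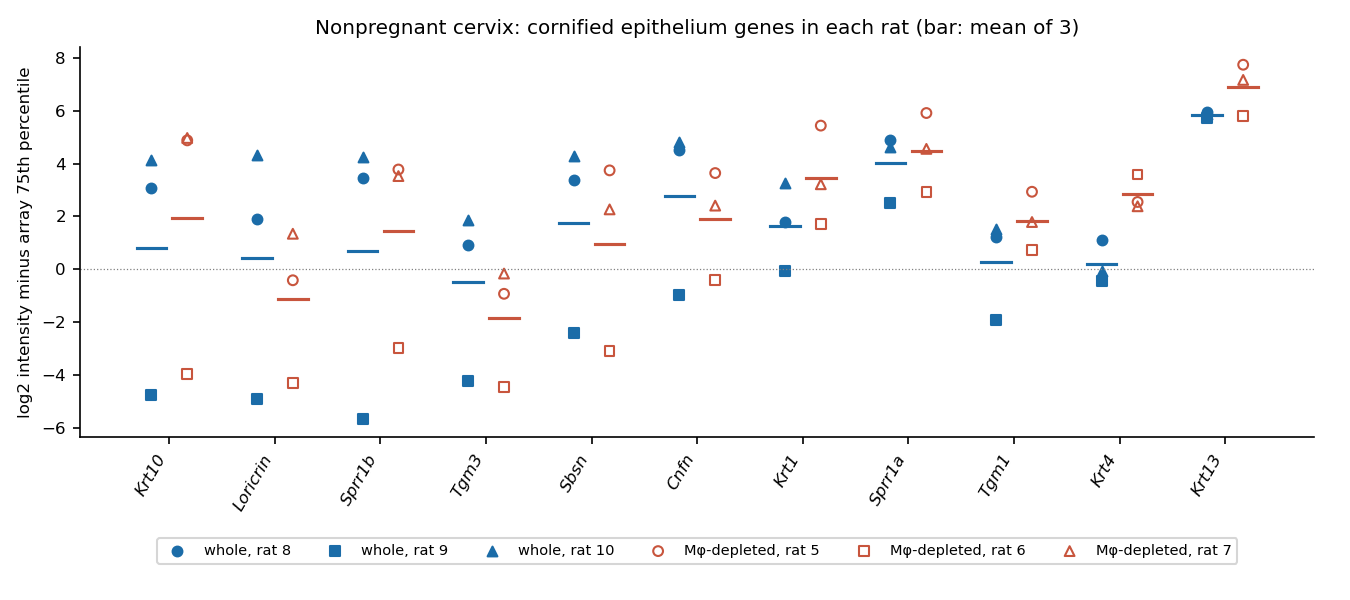
Level of the 11 tested genes of cornified epithelium in each NP rat, as log2 intensity minus the 75th percentile of the array (y axis); filled blue marks are whole rats, open red marks Mφ-depleted rats and bars means of 3. Heights of different genes are not comparable. Squares, whole rat 9 and Mφ-depleted rat 6, lie lowest for Krt10, Loricrin, Sprr1b, Tgm3, Sbsn and Cnfn.

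Immediate-early genes, transcription factors that cells switch on within minutes of a growth signal or stress and that need no new protein, were lower in whole cervix. Of 21 tested 15 were called lower and 0 higher, against 10.8% and 13.6% of all genes, with a median of -1.87. Of the 21, 2 were tested through the Mφ-depleted group alone. Fos (probe on chromosome 6, 109561941 to 109562000 in rn4) had levels of -0.81, -0.85 and 0.05 in whole and 3.94, 4.07 and 3.58 in Mφ-depleted cervix (log2 fold change -4.40, standard error 0.38, adjusted p = 1.15e-05 from limma). Atf3, a stress-induced factor, had -2.05, -0.88 and -1.97 and 3.71, 4.33 and 2.86 (log2 fold change -5.27, standard error 0.47, adjusted p = 1.51e-05 from limma). Every Mφ-depleted rat was above every whole rat by more than 3 log2 units in both genes. Nr4a1, an orphan nuclear receptor, changed by -3.25 (adjusted p = 8.25e-06) and Jun, the partner of Fos, by -2.19 (adjusted p = 7.8e-05). Klf2, Klf4, Ier3, Jund, Maff and Srf, the 6 members not called, had log2 fold changes from -1.12 to 0.23. Negative regulators that follow such signals moved the same way, with 9 of 14 called lower and 0 higher, against the same shares, and a median of -1.45. Of the 14, 1 was tested through the Mφ-depleted group alone. Dusp1, a phosphatase that switches off MAP kinases, had 0.49, 0.86 and 1.37 in whole and 4.88, 4.57 and 3.63 in Mφ-depleted cervix (log2 fold change -3.45, standard error 0.36, adjusted p = 3.87e-05 from limma). Ppp1r15a, which restores translation after stress, had 1.66, 1.66 and 1.65 and 4.43, 4.90 and 4.17 (log2 fold change -2.85, standard error 0.31, adjusted p = 5.66e-05 from limma). The whole rats were nearly equal for Ppp1r15a. Dusp5, an ERK phosphatase, changed by -2.98 (adjusted p = 0.00137) and the cell cycle inhibitor Cdkn1a by -1.86 (adjusted p = 0.00102), although the second Cdkn1a probe differed by -0.68.

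A pair of elements is known from promoters of such genes. The cAMP response element, TGACGTCA, stood in the 250 bases before the start of 4 of 17 immediate-early genes held in the RefSeq promoter table and in 2 of 18 feedback regulators. The share was 1.7% of all promoters, 3.16% of the genes lower and 1.24% of the genes higher in whole cervix, and 2.93% of all genes tested. The CArG box, bound by serum response factor, stood in 4 and 2 of the same promoters and in 1.5% of all. Both strands were searched. A match describes the letters only. Members that were not called hold them too: Jund and Maff the cAMP response element, and Srf the CArG box. The 150 bases before the start of 4 genes that were called lower in whole cervix are given to show these elements (RefSeq, GRCr8 build). Capitals mark the cAMP response element in Dusp1, Ppp1r15a and Ier2 and a pair of CArG boxes side by side in Dusp5:
Dusp1 (chr10:17184703-17184852, plus strand): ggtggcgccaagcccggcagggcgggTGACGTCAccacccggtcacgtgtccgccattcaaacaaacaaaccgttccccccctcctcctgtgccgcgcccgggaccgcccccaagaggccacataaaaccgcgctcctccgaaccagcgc
Ppp1r15a (chr1:105139597-105139746, minus strand): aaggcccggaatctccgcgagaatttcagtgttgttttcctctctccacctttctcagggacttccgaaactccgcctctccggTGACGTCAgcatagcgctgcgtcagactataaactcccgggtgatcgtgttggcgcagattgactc
Ier2 (chr19:40399223-40399372, plus strand): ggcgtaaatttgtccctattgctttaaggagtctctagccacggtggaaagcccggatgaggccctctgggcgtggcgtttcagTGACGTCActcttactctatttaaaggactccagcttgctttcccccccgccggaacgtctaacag
Dusp5 (chr1:262543624-262543773, plus strand): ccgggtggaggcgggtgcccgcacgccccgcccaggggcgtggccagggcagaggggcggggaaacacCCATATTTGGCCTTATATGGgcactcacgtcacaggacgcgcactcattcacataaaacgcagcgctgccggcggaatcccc

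Secreted mediators of acute inflammation went both ways. Cxcl1, a neutrophil chemokine, had levels of -4.29, -2.30 and -5.21 in whole and 1.05, 2.68 and -0.21 in Mφ-depleted cervix, with 1 of 3 whole arrays well above background (log2 fold change -5.10, standard error 1.06, adjusted p = 0.00367 from limma). The spread within each group was wide, and Cxcl1 was not called within slide 3 (-3.08) or with either batch term. The EGF receptor ligands Hbegf and Areg were lower in whole cervix, with log2 fold changes of -3.08 (adjusted p = 0.000422) and -3.27 (adjusted p = 0.00126). Il1b was higher in whole cervix by 1.93 (adjusted p = 0.0201) but not called without rat 5, 7, 8 or 10, and Csf1, the Mφ growth factor, was higher by 1.52 (adjusted p = 0.00266). In all, 4 of 13 were called lower and 2 higher, against 10.8% and 13.6% of all genes. Of the 13, 6 were tested through the Mφ-depleted group alone and 1 through the whole group alone. Gdf15, a TGF-beta family member that rises with cell stress, had the most negative change of all genes with a RefSeq symbol that met the naming rule. Its levels were -4.74, -2.64 and -5.94 in whole and 1.46, 3.65 and 1.36 in Mφ-depleted cervix, with 1 of 3 whole arrays well above background (log2 fold change -6.59, standard error 0.79, adjusted p = 0.000107 from limma).

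Stress responses were not uniform. Hspa1b, the inducible HSP70, had 0.11, -0.01 and 0.26 in whole and 4.35, 4.45 and 4.40 in Mφ-depleted cervix (log2 fold change -4.28, standard error 0.25, adjusted p = 1.57e-06 from limma). The rats of each group lay within 0.3 log2 units of each other. Its near-identical copy Hspa1a may share signal with this probe. Dnajb1, a co-chaperone of HSP70, had 2.24, 2.26 and 2.33 and 4.44, 4.30 and 4.09 (adjusted p = 3.41e-05), with every Mφ-depleted rat above every whole rat. The small heat shock protein Hspb1 changed by -1.58 (adjusted p = 0.00108). That made 3 of 10 called lower, against 10.8% of all genes. The other 7 of 10 heat shock genes tested were not called, among them the constitutive chaperone Hspa8 (-0.43) and the co-chaperone Dnaja1 (0.97). The letters GAANNTTC, a core of the heat shock element that reads the same on both strands, lay in the 250 bases before the start of 8 of 9 heat shock genes, against 7.02% of all promoters, 4.21% of the genes lower and 6.83% of the genes higher in whole cervix. Members that were called and members that were not both hold these letters. The 150 bases before the start of the called genes Hspb1 and Dnajb1 are shown with them in capitals (RefSeq, GRCr8 build):
Hspb1 (chr12:26432302-26432451, minus strand): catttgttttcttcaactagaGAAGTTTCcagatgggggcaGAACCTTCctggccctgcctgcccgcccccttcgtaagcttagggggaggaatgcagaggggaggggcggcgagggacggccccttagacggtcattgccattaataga
Dnajb1 (chr19:41431142-41431291, minus strand): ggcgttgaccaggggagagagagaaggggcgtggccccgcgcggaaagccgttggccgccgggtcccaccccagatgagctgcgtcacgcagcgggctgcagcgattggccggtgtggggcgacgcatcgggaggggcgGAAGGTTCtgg

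Genes of endoplasmic reticulum stress gave counts near those of all genes (13.6% higher and 10.8% lower), with 3 (Xbp1, Dnajb9 and Pdia4) called higher and 2 lower of 12. Atf4 and its target Asns were lower in whole cervix, with log2 fold changes of -1.09 (adjusted p = 0.0037) and -1.09 (adjusted p = 0.0039), and Dnajb9 and Pdia4 higher by 1.28 (adjusted p = 0.00214) and 1.29 (adjusted p = 0.0139). Dnajb9 and Xbp1 (1.25, adjusted p = 0.0202) were also called within slide 3, and the other 3 were not. Atf4 was not called without whole rat 9, Asns without whole rat 10, and Pdia4 without Mφ-depleted rat 6 or whole rat 8. Slc2a1, the glucose transporter GLUT1, had 3.03, 2.22 and 3.33 in whole and 5.41, 4.43 and 6.05 in Mφ-depleted cervix (log2 fold change -2.44, standard error 0.42, adjusted p = 0.00112 from limma), and Ddit4, an inhibitor of mTOR signalling, changed by -1.97 (adjusted p = 0.00235). They were among 4 called of 12 genes of hypoxia and glycolysis, near the 24.3% of all genes called in either direction. The others, Bnip3 (1.52) and Egln3 (-1.32), were not called within slide 3, Bnip3 also not without rat 5, 6, 8 or 10, and Egln3 not without rat 5, 6, 7, 8 or 9. Vegfa was not called (log2 fold change -0.65, standard error 0.25, adjusted p = 0.0692 from limma). Of 13 cell cycle genes 4 were called lower in whole cervix and 0 higher, against 10.8% and 13.6% of all genes. The 4 were Cdc20, Aurka, Rrm2 and Mcm5, with whole rat 9 the lowest of the 6 rats for each. None of these 4 was called within slide 3, Rrm2 also not without rat 5, and Mcm5 not without rat 5, 9 or 10.

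Of 15 subunits of oxidative phosphorylation, the respiratory chain of mitochondria, none was called by limma, against 24.3% of all genes called in either direction. A limma p below 0.05 before adjustment was met by 4 of the 15. Log2 fold changes of the 15 ran from -0.88 to 1.04. Sdhb came nearest by p (log2 fold change 0.98, standard error 0.22, adjusted p = 0.00572 from limma). Actb, the cytoskeletal actin often used as a reference, had 7.60, 6.77 and 7.22 in whole and 7.51, 7.04 and 7.24 in Mφ-depleted cervix (log2 fold change -0.07, standard error 0.27, adjusted p = 0.869 from limma). Among Schwann cell genes S100b was higher in whole cervix by 2.92 (adjusted p = 0.007) and Ngfr by 2.28 (adjusted p = 0.0174), neither of them called within slide 3, and Ngfr not without rat 6, 7, 8 or 10.

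Several of the largest changes lay outside the lists. Retnlg, a resistin-like protein of neutrophils and monocytes, had levels of 5.85, 0.21 and 5.72 in whole and -5.44, -4.53 and -4.43 in Mφ-depleted cervix, with 1 of 3 Mφ-depleted arrays well above background (log2 fold change 8.73, standard error 1.32, adjusted p = 0.000488 from limma). Whole rat 9 lay more than 5 log2 units below the other whole rats, and Retnlg was not called within slide 3 (7.46). Fcrl2, an Fc receptor-like protein, had 2.43, 3.00 and 2.42 and -3.86, -4.68 and -4.70 (log2 fold change 7.03, standard error 0.46, adjusted p = 2.21e-06 from limma). The immunoglobulin superfamily gene listed as Igsf7 l1 had an excess in whole cervix of at least 93.9-fold (adjusted p = 4.95e-05), and the kallikrein-related protease Klk14 one of at least 26.6-fold (adjusted p = 0.000163). Tekt3, a tektin of cilia and sperm tails, had 1.26, 1.66 and 0.98 in whole and -4.72, -7.29 and -5.25 in Mφ-depleted cervix (log2 fold change 7.06, standard error 0.65, adjusted p = 1.8e-05 from limma). In the other direction Bcl11b, a zinc finger factor of T cells and squamous epithelia, had -5.51, -6.22 and -5.68 in whole and -0.79, -1.20 and -1.45 in Mφ-depleted cervix. No whole array was well above background for Bcl11b, which had an excess after removal of at least 7.35-fold (adjusted p = 6.23e-06). Tfap2e, an AP-2 factor, changed by -4.20 (adjusted p = 6.03e-05), the vasoactive peptide Adm2 by -3.97 (adjusted p = 0.00193) and Clca4l, a chloride channel regulator, by -4.38 (adjusted p = 0.0075). Each had 1 of 3 whole arrays well above background. Clca4l was not called within slide 3 (-1.66), with a slide (-2.84) or scan day term (-2.99) or in a fit of the 6 NP arrays alone, and was -2.81 without Mφ-depleted rat 6.

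The same removal in D21 cervix, with no rat in common, gave 1426 genes (10.0%) higher and 1100 (7.73%) lower of 14237 tested. D21 whole rats 5, 6 and 7 all lay on slide 4, and Mφ-depleted rats 1, 2 and 4 on slides 2, 1 and 3. Within D21 no slide held both groups, so slide and removal cannot be told apart there. Of the genes higher in NP whole cervix, 41.7% were also called higher in D21, and 53.2% of those in D21 were also called in NP. For lower genes the shares were 35.9% and 47.1%. Opposite calls were found for 3 genes higher in NP and lower in D21 and for 2 the other way. Whether a change differs between NP and D21 was tested as an interaction, which passed an adjusted p of 0.05 for 351 of 14545 genes (2.41%), against 18.7% at an unadjusted p below 0.05. In 286 of them the log2 fold change was more positive in NP than in D21 (1.97% of genes), and in 65 more negative (0.447%). These counts go by sign and not by size, so a gene that was more negative in D21, such as Egr1, is among the 286. The count was 55 with slide as a block, 52 with normexp background correction and 2695 with array weights, and lay between 147 and 554 when single NP rats were left out: 158 without rat 5, 233 without rat 6, 554 without rat 7, 147 without rat 8 and 163 without rat 10.

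Of 23 Mφ genes none passed the interaction in limma after adjustment, against 2.41% of all genes, and 1 did at an unadjusted p below 0.05, against 18.7% of all genes. A count of 0 among so few is near the share of all genes. Their median difference, NP minus D21, was 0.61 on the log2 scale, with members from -2.39 to 1.67, and that of MHC class II genes -0.57, from -1.05 to 0.54. For Csf1r the difference of the log2 fold changes, NP minus D21, was -0.06 (95% interval -1.34 to 1.22), for Adgre1 -0.08 (-1.62 to 1.46) and for RT1-Da -0.13 (-1.20 to 0.94). No Mφ-depleted NP array was well above background for Adgre1, and 1 of 3 was for Csf1r. The differences of these genes therefore rest on signals near background and are not exact. The interaction passed for 8 of 13 fibroblast genes, 11 of 23 of matrix assembly and 5 of 13 of smooth muscle. It also passed for 6 of 7 of skeletal muscle and 7 of 10 of tract patterning. All of these had the higher log2 fold change in NP, and the share over all genes was 2.41%. These list counts come from the fit without a slide term. A gene entered this test when well above background on every array of any 1 of the 4 groups. In NP, 5 of 6 skeletal muscle, 6 of 10 patterning and 6 of 22 matrix genes were tested through the whole group alone. So were 3 of 13 smooth muscle and 2 of 13 fibroblast genes. The direction of such genes is no independent result. Rxfp1, 1 of the 10 genes with the smallest interaction p, is an example. In D21 cervix it had levels of 0.28, -0.09 and -0.09 in whole rats 5, 6 and 7 and -0.70, 0.15 and -0.49 in Mφ-depleted rats 1, 2 and 4, a log2 fold change of 0.38 against 4.99 in NP (difference 4.61, interaction adjusted p = 0.00174 from limma). Wt1 had -0.52, -1.11 and -0.88 and -1.73, -1.58 and -2.15 in D21 (difference 3.91, interaction adjusted p = 0.00174 from limma). In D21 the groups overlapped for Rxfp1, and for Wt1 they did not, with 0.98 against 4.89 in NP. Gdf10, Serpinf1, Gpm6b, Mfap2, Clmp, Dpt, Pdgfra and Pdgfrb, the others of the 10 with the smallest interaction p, differed by 2.92 to 4.52.

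**Figure D4:**
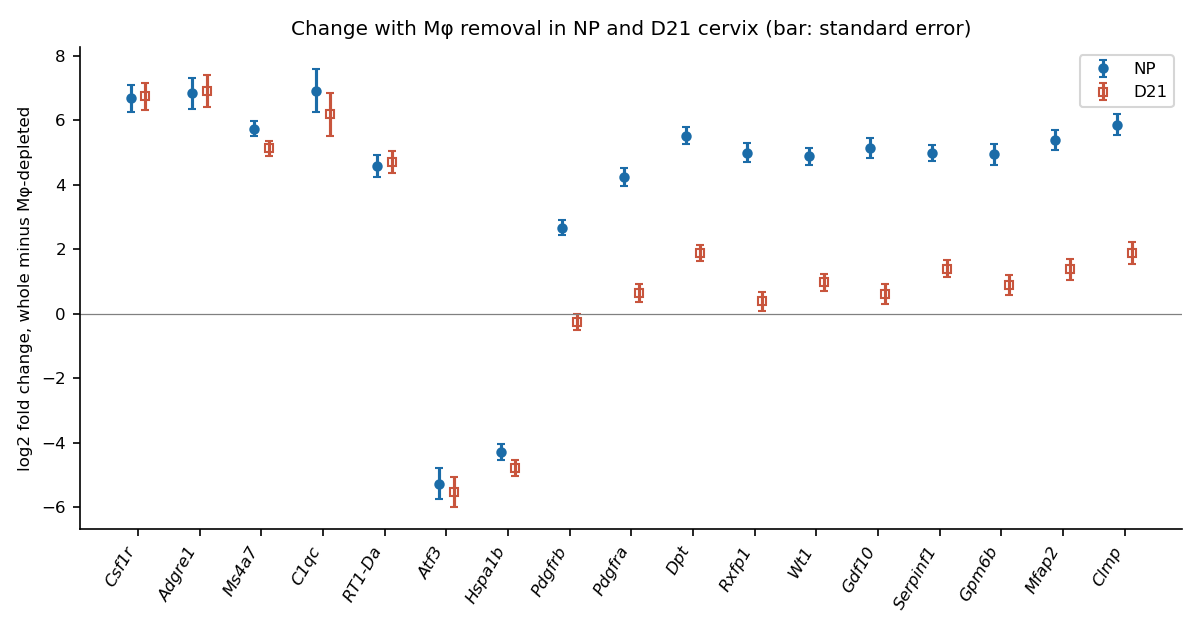
Log2 fold change between whole and Mφ-depleted cervix (y axis) in NP (filled blue) and D21 rats (open red squares) with standard errors, for 5 Mφ and antigen presentation genes, Atf3 and Hspa1b, and the 10 genes with the smallest interaction p. Each of the first 7 genes differs by less than 1 log2 unit between NP and D21. For Adgre1 and Ms4a7 no Mφ-depleted NP array was well above background, so their NP points are fitted values and not exact folds. The 10 others lie between 2.66 and 5.86 in NP and between -0.26 and 1.89 in D21.

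Of the immediate-early genes 3 of 24 passed the interaction, against 2.41% of all genes. They were Egr1, Fosl1 and Egr4, each with the more negative log2 fold change in D21. Egr1 changed by -1.65 in NP and by -4.41 in D21 (difference 2.76, interaction adjusted p = 0.0178 from limma), and the other 2 were not tested in NP alone. Fos was more negative in NP, but the difference of -2.26 was not called (95% interval -3.45 to -1.08, interaction adjusted p = 0.0556 from limma). For Atf3 it was 0.27 (-1.21 to 1.74). None passed among basal squamous (13 genes), feedback (14) and heat shock genes (10). A count of 0 among so few is near the share of all genes. By limma at an unadjusted p below 0.05, which 18.7% of all genes met, the counts were 2, 2 and 4. Of the 24 immediate-early genes 9 met it.

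**Figure D5:**
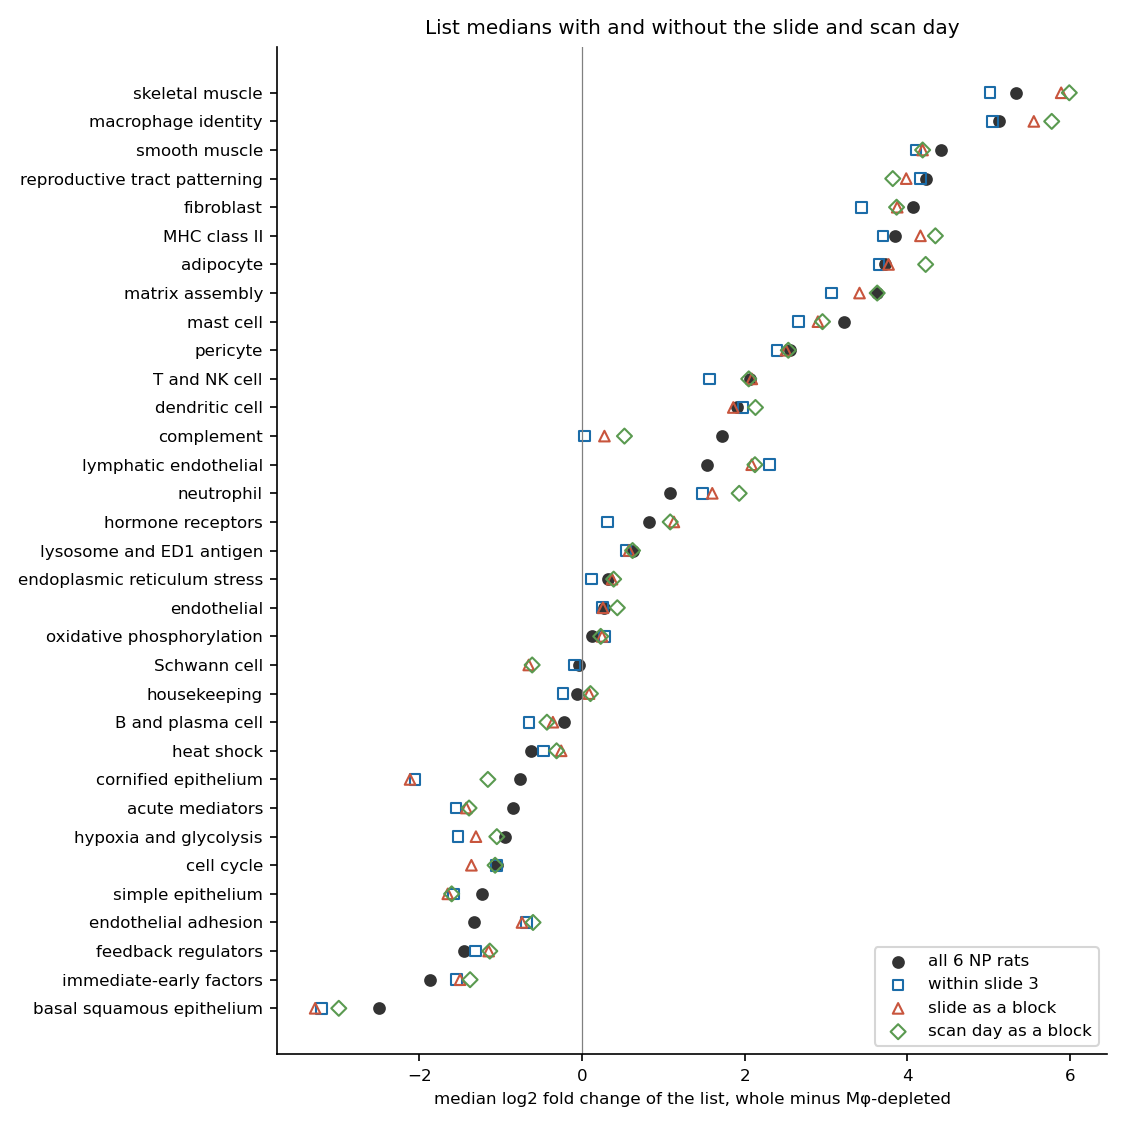
Median log2 fold change of each gene list between whole and Mφ-depleted NP cervix (x axis) over all 6 NP rats, within slide 3, and with a term for slide or for scan day. The medians of the Mφ, smooth muscle, fibroblast, immediate-early and basal squamous lists keep their direction in all 4. Those of complement and cornified epithelium move most within slide 3, from 1.72 to 0.03 and from -0.76 to -2.05.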

How the data were processed

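Total RNA from 12 rats in 4 groups was hybridised to 1-colour Agilent rat arrays, 1 rat an array. The authors scanned the arrays, and the deposited intensity values (processed signal, background-subtracted) come from Agilent Feature Extraction 9.5.3.1, per the file headers. A second table from the authors holds ratio values, each spot's intensity over the 75th percentile of its array, used here as an alternative. Array number and signal over background, not read depth, limit precision.

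Control and flagged spots were left out, spots of a probe averaged, and log2 intensity minus the 75th percentile of each array computed. Of 30367 probes 57.6% were named through RefSeq accessions and the rest by symbol, synonym or the name in the file. The probe with the highest mean stood for a gene. Genes well above background on every array of at least 1 group compared were fitted with limma 3.58.1 (R 4.3.3) over all 12 arrays, and the procedure was tested on simulated data. A gene was called at p below 0.01 with a 2-fold change, the threshold of the study's methods. An exact permutation test of 3 against 3 rats cannot go below p = 0.1, so none is given. Named were the 10 largest called changes in each direction, up to 4 members with the smallest p, the first member and any member called against the majority of each list, Cd68, Cd14 and the 10 smallest interaction p-values. Genes that this rule picked but that are not reported here stay in the counts and medians of their lists. The comparison, lists and alternatives were chosen with earlier results of these data known. The labels do not say whether rats shared a day of preparation. List names not matched here were Junb, Tnfaip3, Mki67, Cd79a, Itgax, Col12a1, Polr2a, Hspa1a, Plin4, Hoxd11 and Chac1. Promoter letters came from RefSeq (GRCr8, 27457 promoters), and array coordinates are in rn4.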

Additional observations from a re-analysis of the deposited data

Results flagged for a closer look

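The change with Mφ removal differed between NP and D21 cervix for 351 genes by the limma interaction test at an adjusted p below 0.05. The fit had no slide term, and with slide as a block the count was 55. For genes that entered the test through the NP whole group alone, the direction is no independent result. Below, each value is the log2 fold change of whole over Mφ-depleted cervix in NP minus that in D21.

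Among genes picked by the naming rule, 30 met this test. The immediate-early genes Egr1, Fosl1 and Egr4, named in the report outside that rule, met it too. The skeletal muscle genes Acta1 (4.81), Tnnc2 (5.33), Cox6a2 (4.04) and Casq1 (3.53, a calcium store protein) had the larger change in NP. So did the smooth muscle genes Cnn1 (2.69) and Acta2 (2.79) and the receptor Pdgfrb (2.92). The probes used for Cox6a2 and Casq1 were well above background on no Mφ-depleted NP array, so their values are not exact. Fibroblast genes were Dpt (3.65), Dcn (2.51), Pdgfra (3.60) and Twist2 (3.82), and matrix genes Ogn (2.68), Col6a1 (3.05), Prelp (3.05) and Lox (3.11). The relaxin receptor Rxfp1 differed by 4.61. Patterning genes were Wt1 (3.91), Hoxa10 (3.07), Osr2 (4.16), Hoxa11 (4.57) and Hoxa9 (3.37). Hoxa9 itself was not called in NP within slide 3 or with normexp background correction. Ctsk differed by 4.07, C1r by 2.68 and Tekt3 by 5.75. The remaining genes of smallest interaction p were Gdf10 (4.52), Serpinf1 (3.58), Gpm6b (4.05), Mfap2 (4.02) and Clmp (3.97). Tfap2e alone among the 30 had a negative difference, -2.92.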

How the results depend on the processing

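No paired analysis was possible because the whole and Mφ-depleted NP rats share no rat number. The count of genes higher in whole NP cervix (1817) was 1207 with normexp background correction, 944 with genes well above background on every array, 851 by the methods' t-test and 466 after its Benjamini-Hochberg adjustment. The count lower (1444) was 877 with normexp and 572 and 245 by the t-test before and after adjustment. Leaving out single NP rats gave 1648 to 1997 higher and 1196 to 1745 lower. The interaction count (351) was 52 with normexp, 103 without the filter on dim probes, 185 with genes well above background on every array, 2695 with array weights, 55 with slide as a block, and 147 to 554 with single NP rats left out. The cause was not tested.

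Reversed values belonged to uncalled genes. Cd68 (0.54) was -0.74 with slide and -0.55 with scan day as a block, -0.41 within slide 3 and -0.10 to 0.93 with single rats left out. Cd14 (-0.23) was 0.65, 0.60 and 1.22 under the first 3, and -0.93 to 0.24 with single rats left out. Actb was 0.11 with slide and 0.12 with day as a block, 0.10 with quantile normalization and -0.27 to 0.15 with single rats left out. Pecam1 was 0.020 with slide and 0.21 with day as a block. Pdpn was 0.21, 0.046 and 0.11 with slide, with day and within slide 3, and 0.026 as the mean of probes. Cd3d was -0.031 with slide as a block and -0.12 within slide 3. Cxcr2 was 0.17 with normexp and -0.995 to 0.14 with single rats left out. S100a9 was -0.021 with normexp, -0.88 with array weights and -0.38 to 2.26 with single rats left out. Pax5 was 0.065 with array weights and -0.49 to 0.038 with single rats left out. Batf3 was -0.071 with array weights. List medians reversed for mast cells (-0.90) and pericytes (-0.23) with the every-array filter, and for neutrophils with array weights (-0.039) and without Mφ-depleted rat 7 (-0.15, against up to 2.13 with other rats left out).

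Of 159 named genes, 124 kept direction and call status within slide 3, 131 with slide and 135 with scan day blocked, and 136 with normexp. By the methods' t-test 111 did. The median over all genes moved from -0.07 to 0.02 between scalings. The dimmest NP arrays limit what can be tested of rare leukocytes. Leaving out 1 rat kept the call but moved it by over 1.5-fold for Retnlg (10.58 without whole rat 9), Acta1 (9.31 without Mφ-depleted rat 7), Adm2 (-4.90 without whole rat 10), Gdf15 (-7.49 without whole rat 9) and Areg (-2.49 without whole rat 9), among others.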
